A study of Homo sapiens with 9 samples.

Results

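The glutathione S-transferases (GSTs) described here were 10 genes, matched by symbol to 10 of the 60880 Ensembl gene IDs counted in each RNA-seq library: GSTA4 of the alpha class, GSTM2, GSTM3 and GSTM4 of the mu class, GSTO1 of the omega class, GSTP1 of the pi class, GSTK1 of the kappa class, and the membrane-bound MGST1, MGST2 and MGST3. Other members of these families are described after them, and all 10 had enough counts to be tested. Poly-A RNA was sequenced from SNU5, an established human gastric carcinoma line grown in a serum-containing medium. The cells were treated for 24 h with ramucirumab, a monoclonal antibody against VEGFR2, in 3 forms. In the NR group the antibody was attached through PEG to gold nanorods (AuNR-PEG-Ab), in the SP group it was attached through PEG to gold nanospheres (AuSP-PEG-Ab), and in the Ab group it was given alone, at 8 μg/mL of antibody in every group. Each group had 3 libraries, 9 in all, and every library therefore came from antibody-treated cells. Untreated cells and cells with particles lacking antibody were not analysed here, so a difference from the Ab group cannot be divided between the gold, the PEG and the attached antibody.

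The 3 NR libraries held 25735410, 13863155 and 15943980 counts, the 3 SP libraries 21682836, 22914759 and 20601906, and the 3 Ab libraries 19566064, 26318227 and 21031024. Levels are given as CPM, the counts of a gene scaled to the same total in each library. Detection ended at about 3 counts, the number that a count of 0 allows, which amounted to between 0.114 and 0.216 CPM. Each pair of groups was fitted separately by edgeR (quasi-likelihood), and p-values were adjusted over all genes tested by Benjamini-Hochberg. Genes with an adjusted p up to 0.05 are said to have passed, or to have risen or fallen, and those that also changed at least 2-fold were called 2-fold. The study speaks of biological replicates and of independently repeated work in vitro. The sample labels, however, do not tie the 3 libraries of a group to separate cultures, and the p-values measure the spread between these libraries. Since NR and SP were both compared with the same Ab libraries, their 2 sets of values against Ab are given side by side and are not independent of each other.

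GSTs join the tripeptide glutathione to reactive, mostly electrophilic, compounds, which makes them more soluble and ready for export from the cell. The cytosolic enzymes work as dimers, the kappa enzyme sits in mitochondria and peroxisomes, and the microsomal enzymes belong to MAPEG, a separate family of membrane proteins that also makes leukotriene C4 and prostaglandin E2. The reaction uses glutathione, which is made from imported cystine, recycled with NADPH, and degraded outside the cell by the gamma-glutamyl transferases. Many GST genes are known targets of NRF2 (the product of NFE2L2), which binds antioxidant response elements with small MAF proteins, and several are known to answer to the aryl hydrocarbon receptor AHR.

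As these regulators act through short DNA words near gene starts, the 250 bases before each start were searched for the core letters of the antioxidant response element, TGACNNNGC, on both strands. Promoter sequences were taken from RefSeq (GRCh38.p14), which held 9 of the 10 genes. Matches lay in 3 genes, GSTA4, GSTO1 and GSTP1, while 10.91% of the 35116 promoters searched held a match. They are shown 5′ to 3′ on the strand of the gene with the matched letters in capitals. The GSTP1 match (chr11:67583731-67583769, plus strand) began 66 bases before the start and overlapped a match to the AP-1 letters TGANTCA, which 6.573% of promoters held. The matches of GSTO1 began 226 and 161 bases before the start (chr10:104254651-104254689 and chr10:104254716-104254754, plus strand), and that of GSTA4 began 9 bases before it (chr6:52995285-52995308, minus strand).
GSTA4: cccagccgggaccgcTGACCTGGC
GSTP1: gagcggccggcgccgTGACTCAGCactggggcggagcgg
GSTO1, first: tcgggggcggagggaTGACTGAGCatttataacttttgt
GSTO1, second: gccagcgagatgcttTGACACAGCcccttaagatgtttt
The letters GCGTG, the core of the xenobiotic response element bound by AHR, were found in 3 others, GSTM3, GSTM4 and MGST3, against 32.22% of promoters. A match describes letters in this window and not a bound site.

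Against Ab, the GST transcripts were higher in both particle groups. In NR, 10 of 10 rose, 7 of them at least 2-fold, against 36.4% of the 15009 genes tested that passed higher and 12.4% that were called 2-fold higher. In SP, 9 of 10 rose, 7 of them at least 2-fold, against 36.4% and 12.6% of 15068 genes. The values of all 10 genes did not overlap between NR and Ab, nor between SP and Ab, which held in the higher direction for 38.8% and 39.0% of genes. The median log2 fold change of the 10 genes was 1.57 in NR and 1.53 in SP, beside -0.01 in both over all genes tested. In these bulk libraries, a higher level in each cell and more cells with the transcript cannot be told apart. The smallest changes were those of GSTO1, MGST1 and GSTM2, and the largest was that of GSTA4. The level of each gene in the 9 libraries is shown in the plot of CPM.

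**Figure D1:**
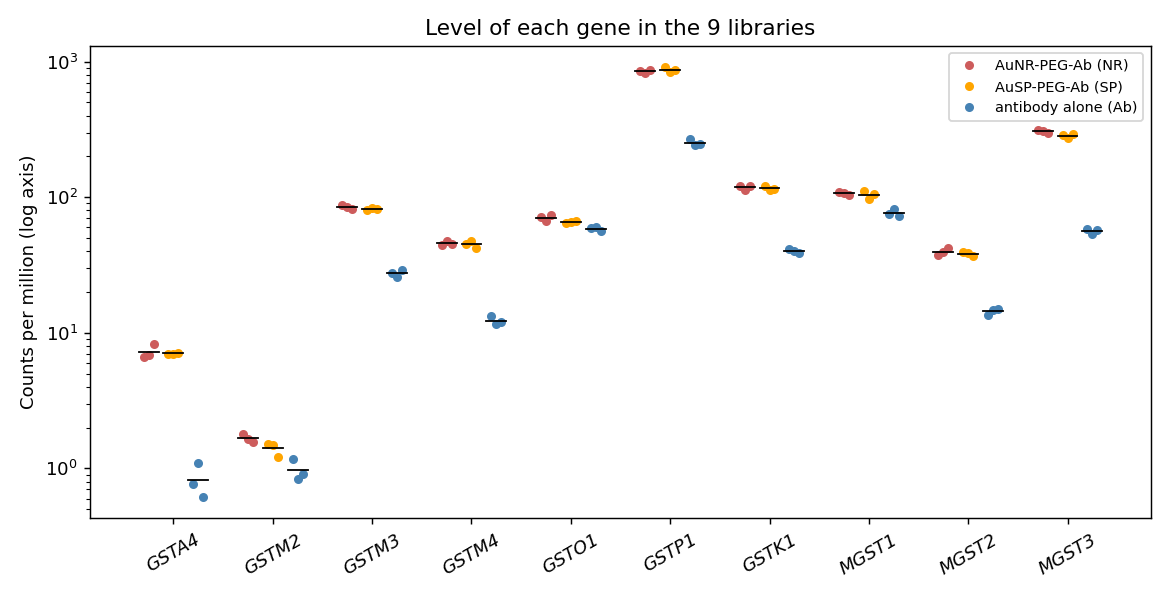
Level of the 10 GST genes in CPM (log axis) in the 3 libraries of each group, with points for libraries and black bars for group means. For every gene the NR and SP points lie above the Ab points, by the widest gap in GSTA4 and the narrowest in GSTM2 (1.21 in the lowest particle library against 1.18 CPM in the highest Ab library).

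GSTP1 (ENSG00000084207, GRCh37 chr11:67351213-67354127), the pi-class enzyme that is abundant in many carcinomas, had the highest level per length of the 10. Its levels in libraries 1, 2 and 3 were 857, 827 and 860 CPM in NR, 906, 844 and 871 CPM in SP, and 269, 241 and 245 CPM in Ab. The 6 particle libraries overlapped each other and lay far above the 3 Ab libraries. By edgeR's quasi-likelihood test GSTP1 rose 3.31-fold in NR (log2 1.73, SE 0.05, adjusted p = 8.43e-23) and 3.41-fold in SP (log2 1.77, SE 0.05, adjusted p = 6.30e-22).

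GSTA4 (ENSG00000170899, GRCh37 chr6:52842746-52860102), the alpha-class enzyme that conjugates 4-hydroxynonenal, a product of lipid peroxidation, was low in Ab. Its levels were 6.68, 6.85 and 8.28 CPM in NR, 7.01, 7.03 and 7.09 CPM in SP, and 0.767, 1.10 and 0.618 CPM in Ab, the last from 15, 29 and 13 counts. It rose 8.35-fold in NR (log2 3.06, SE 0.21, adjusted p = 3.04e-13 by edgeR) and 8.12-fold in SP (log2 3.02, SE 0.21, adjusted p = 2.45e-13). The other alpha-class genes lay at the detection floor: GSTA1, GSTA2 and GSTA5 had 0 counts in all 9 libraries, and GSTA3 had 1 count in 1 SP library. GSTA4 was therefore the alpha-class gene whose transcript was detected above that floor at this depth.

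The mu-class genes lie together on chromosome 1 (GRCh37). On the plus strand, in the order of their starts, are GSTM4 (ENSG00000168765, chr1:110198721-110208118), GSTM2 (chr1:110210644-110252173), GSTM1 (chr1:110230436-110251661) and GSTM5 (chr1:110254402-110318050). GSTM3 (ENSG00000134202, chr1:110276554-110283660) lies on the minus strand, within the span of GSTM5. The span of GSTM1 lies within that of GSTM2. GSTM1 and GSTM2 share 559 exon bases on the same strand, 22.25% of those of GSTM1 and 6.13% of those of GSTM2. GSTM3, known from brain and testis, stood at 87.5, 85.3 and 82.2 CPM in the NR libraries, 80.2, 83.0 and 81.9 CPM in the SP libraries and 27.7, 25.9 and 29.0 CPM in the Ab libraries. The particle libraries lay far above the Ab libraries, and GSTM3 rose 3.04-fold in NR (log2 1.60, SE 0.06, edgeR adjusted p = 4.93e-19) and 2.92-fold in SP (log2 1.55, SE 0.06, adjusted p = 4.22e-18). GSTM4, a cytosolic enzyme of the same class, stood at 44.6, 47.8 and 45.2 CPM in NR, 45.2, 47.6 and 42.0 CPM in SP, and 13.3, 11.6 and 12.1 CPM in Ab. Its rise was 3.66-fold in NR (log2 1.87, SE 0.08, edgeR adjusted p = 2.68e-18) and 3.60-fold in SP (log2 1.85, SE 0.08, adjusted p = 1.62e-17). Of the exon bases of GSTM3, 4.25% overlap a gene on the opposite strand, and as the sources used here give no strand setting for the counting, these reads cannot be assigned with certainty.

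GSTM2 (ENSG00000213366), the mu-class gene best known from muscle, was the lowest of the 10 per length. It had 46, 23 and 25 counts (1.79, 1.66 and 1.57 CPM) in the NR libraries, 33, 34 and 25 counts (1.52, 1.48 and 1.21 CPM) in the SP libraries and 23, 22 and 19 counts (1.18, 0.836 and 0.903 CPM) in the Ab libraries. The groups did not overlap in CPM, although the lowest SP library (1.21) and the highest Ab library (1.18) nearly met. In NR it rose 1.72-fold (log2 0.78, SE 0.28, edgeR adjusted p = 0.0138), a call that was lost with DESeq2 (adjusted p = 0.105), without NR library 1 (0.0608) and without Ab library 2 (0.0693). In SP it did not pass (log2 0.52, SE 0.29, 95% interval -0.08 to 1.12, adjusted p = 0.110). GSTM2 is also uncertain because of shared sequence, since 25.9% of the 150-base stretches of its longest coding transcript occur in GSTM1 transcripts too. GSTM1, which overlaps GSTM2, was at 66.7, 67.9 and 58.7 CPM in NR, 63.5, 53.1 and 50.3 CPM in SP, and 28.6, 27.8 and 29.1 CPM in Ab. It rose by 1.15 (SE 0.07) in NR and 0.94 (SE 0.08) in SP on the log2 scale. GSTM5 had 0 to 3 counts in every library. With the counts of GSTM1, GSTM2, GSTM4 and GSTM5 added, which removes the question of how reads were divided among them, the sum rose 2.63-fold in NR (log2 1.40, SE 0.06, edgeR adjusted p = 1.88e-18) and 2.40-fold in SP (log2 1.26, SE 0.06, adjusted p = 4.58e-16).

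GSTO1 (ENSG00000148834, GRCh37 chr10:105995114-106027217), an omega-class enzyme with a cysteine in its active site and thiol transferase and dehydroascorbate reductase activity, changed least. Its levels were 71.6, 66.4 and 74.0 CPM in NR, 64.3, 65.4 and 67.2 CPM in SP, and 58.8, 60.3 and 56.5 CPM in Ab. NR and SP overlapped, and both lay above Ab by small gaps. The rise was 1.19-fold in NR (log2 0.25, SE 0.06, edgeR adjusted p = 0.000411) and 1.10-fold in SP (log2 0.14, SE 0.06, adjusted p = 0.0373), and the SP call held in only 6 of 13 alternatives, with adjusted p from 0.0143 to 0.155. GSTO2, its neighbour on chromosome 10, stood at 8.73 to 10.2 CPM in the particle libraries and 5.94 to 6.90 CPM in Ab, and passed in NR (log2 0.51, SE 0.13, adjusted p = 0.000937) and in SP (log2 0.51, SE 0.12, adjusted p = 0.000556).

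GSTK1 (ENSG00000197448, GRCh37 chr7:142941186-142967947), the kappa-class enzyme of mitochondria and peroxisomes, stood at 120, 114 and 120 CPM in NR, 122, 112 and 115 CPM in SP, and 41.7, 39.9 and 38.9 CPM in Ab. NR and SP overlapped, and both lay far above Ab. GSTK1 rose 2.89-fold in NR (log2 1.53, SE 0.06, edgeR adjusted p = 8.02e-20) and 2.85-fold in SP (log2 1.51, SE 0.06, adjusted p = 1.41e-18). As a measure that moved with it, genes of the mitochondrial chromosome took 4.36% to 4.66% of the counts in NR and SP libraries and 3.41% to 3.71% in Ab libraries, and their part in the result was not tested.

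Among the microsomal enzymes, MGST3 (ENSG00000143198, GRCh37 chr1:165600450-165631033), which has glutathione transferase and peroxidase activity toward lipids, had the largest change. Its levels were 313, 308 and 298 CPM in NR, 287, 273 and 293 CPM in SP, and 58.2, 53.4 and 57.7 CPM in Ab. The NR libraries lay above the SP libraries, and both lay far above Ab. MGST3 rose 5.34-fold in NR (log2 2.42, SE 0.05, edgeR adjusted p = 3.70e-25) and 4.96-fold in SP (log2 2.31, SE 0.05, adjusted p = 1.20e-23).

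MGST2 (ENSG00000085871, GRCh37 chr4:140586922-140661899), which can also make leukotriene C4, stood at 37.4, 39.3 and 42.2 CPM in NR, 39.3, 38.6 and 37.1 CPM in SP, and 13.6, 14.8 and 14.9 CPM in Ab. NR and SP overlapped, and neither overlapped Ab. It rose 2.69-fold in NR (log2 1.43, SE 0.08, edgeR adjusted p = 1.34e-15) and 2.61-fold in SP (log2 1.38, SE 0.08, adjusted p = 3.02e-15). Of its exon bases, 7.95% overlap MAML3 on the opposite strand. MGST1 (ENSG00000008394, GRCh37 chr12:16500076-16762193), the enzyme of the endoplasmic reticulum and the outer mitochondrial membrane, stood at 74.9, 81.3 and 72.3 CPM in Ab, the highest of the 3 microsomal genes there per length. It reached 109, 108 and 103 CPM in NR and 111, 97.3 and 105 CPM in SP, which overlapped each other and lay above Ab. Its rise was 1.38-fold in NR (log2 0.46, SE 0.05, edgeR adjusted p = 1.17e-08) and 1.35-fold in SP (log2 0.43, SE 0.06, adjusted p = 3.48e-07), well short of those of MGST2 and MGST3. The fold changes of the 10 genes against Ab are compared in the plot of intervals.

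**Figure D2:**
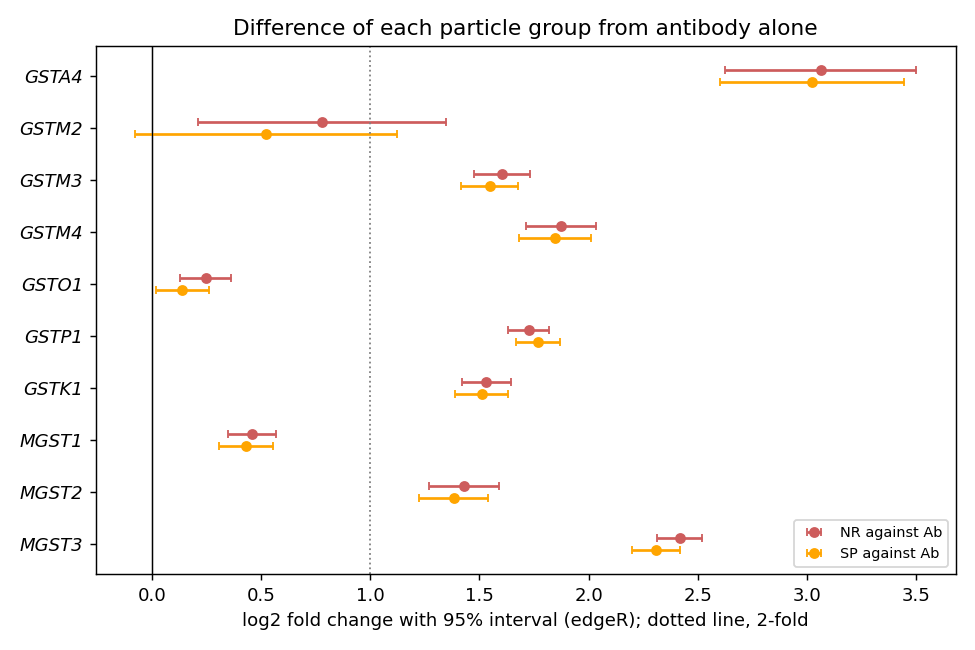
Log2 fold change of the 10 GST genes against Ab in NR and in SP, with points for edgeR's estimates, bars for 95% intervals and a dotted line at 2-fold. Intervals of 7 genes lie wholly above 2-fold in both groups, those of GSTO1 and MGST1 lie wholly below it, and that of GSTM2 in SP spans 0.

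The 3 promoters with TGACNNNGC belonged to the genes with the largest (GSTA4) and the smallest (GSTO1) change and to GSTP1. The 3 with GCGTG belonged to genes that rose 3.04-fold (GSTM3), 3.66-fold (GSTM4) and 5.34-fold (MGST3) in NR. Genes searched without it rose 8.35-fold (GSTA4), 3.31-fold (GSTP1), 2.89-fold (GSTK1), 1.72-fold (GSTM2), 1.38-fold (MGST1) and 1.19-fold (GSTO1). A link between these letters and the changes was not tested.

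Added together, the 10 transcripts took 1649, 1605 and 1635 CPM in NR, 1664, 1570 and 1621 CPM in SP, and 560, 530 and 528 CPM in Ab. The mean sum was 3.02 times that of Ab in NR and 3.001 times in SP, with no test made on the sum. GSTP1 alone gave 52.1% of the sum in NR, 54.0% in SP and 46.7% in Ab, and without it the ratios were 2.72 and 2.59.

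Markers of cell types were read beside these results, since SNU5 is a carcinoma line and the GSTs differ between cell types. Of 6 epithelial markers 5 were tested, and 4 rose in both comparisons, beside 36.4% of all genes that passed higher. The summed level of the 6 was 2248 to 2405 CPM in the particle libraries and 879 to 936 CPM in Ab, most of it from the keratin KRT8. CDH1 (E-cadherin) had 79 to 159 counts in the particle libraries and 5 to 9 in Ab, and KRT19 had 0 or 1 count in every library. EPCAM had 63 to 141 counts in the particle libraries and 29 to 43 in Ab, and CLDN4 stood at 41.4 to 51.9 CPM across the 9 libraries. By level, the epithelial label rested mainly on keratins 8 and 18. KDR, which encodes the antibody's target VEGFR2, had 1 count in 1 NR library and 0 in the other 8. Fibroblast markers summed to 106 to 119 CPM in the particle libraries and 17.7 to 45.3 CPM in Ab, with COL1A1 and LUM the most abundant in the particle libraries and COL1A1 in Ab. LUM rose by 5.30 (SE 0.12) in NR and 5.35 (SE 0.12) in SP, DCN by 5.14 (SE 0.18) and 5.23 (SE 0.18), and PDGFRB by 4.65 (SE 0.21) and 4.79 (SE 0.20), while the 3 collagen genes did not pass. COL1A2 had 37, 0 and 0 counts in the 3 NR libraries. Ab library 3 was low in these collagens (COL1A1 at 13.9 CPM against 29.6 and 26.9), and without it 5 of 6 fibroblast markers passed in each comparison, in either direction, against 3 of 6 with all libraries, while 10600 genes in NR and 10661 in SP passed in either direction without it. The 5 endothelial markers read (PECAM1 was not analysed here) summed to 20.9 to 24.2 CPM against 3.73 to 5.14 CPM, mostly CDH5, with TEK at 0 to 3 counts and CLDN5 at 0 to 4. VWF had 21 to 34 counts in the particle libraries and 0, 0 and 1 in Ab. It was at least 8.59-fold higher in NR and 8.42-fold in SP, with Ab set at its highest floor of 3 counts. Only 2 of the 5 were tested, CDH5 and VWF, and both rose in both comparisons, beside 36.4% of all genes that passed higher. Leukocyte markers summed to 5.56 to 8.26 CPM against 1.24 to 2.20 CPM, mostly CSF1R, and the defining PTPRC and CD3E had 0 to 2 counts in every library. CD14 went the other way, with 2, 7 and 3 counts in the NR libraries, 4, 1 and 4 counts in the SP libraries and 21, 13 and 8 counts in the Ab libraries. CD14 fell in NR (log2 -1.52, SE 0.57, edgeR adjusted p = 0.0201). That call was lost with DESeq2 (adjusted p = 0.126), without NR library 3 (0.0767) and without Ab library 1 (0.164). Without NR library 2 the fall was larger (log2 -2.36, edgeR adjusted p = 0.00617). In SP, CD14 was too low for a test in the main fit. It passed lower there in every alternative that tested it, with log2 values from -1.75 to -2.46 (DESeq2 -2.23, adjusted p = 0.0163). The part of these marker differences in the GST result was not tested.

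**Figure D3:**
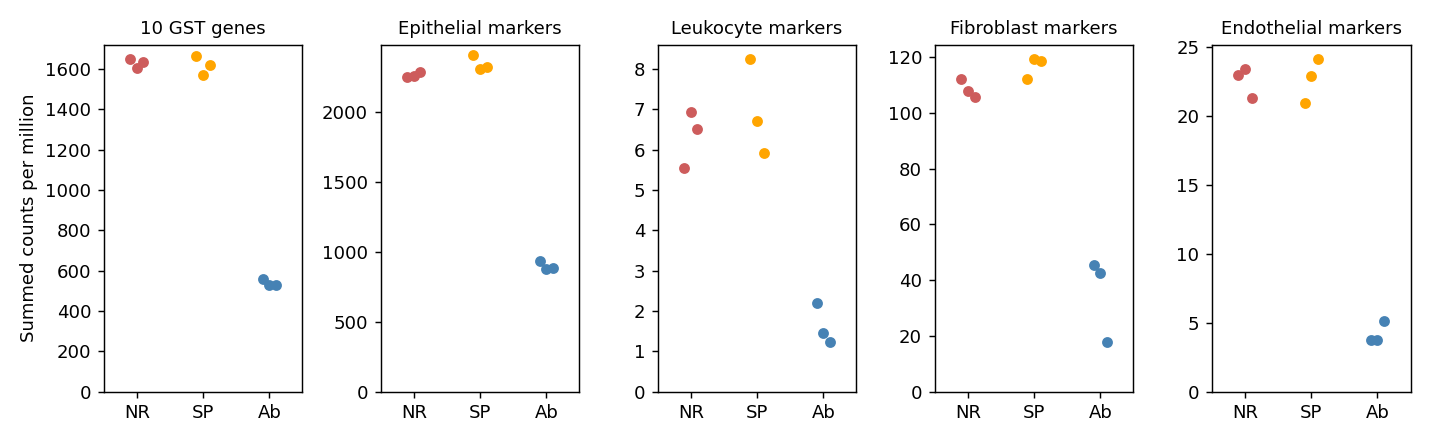
Summed CPM of the 10 GST genes and of 4 lists of cell type markers in each library, 1 point per library, each panel with its own axis from 0. Every list is higher in NR and SP than in Ab, and the 4 lists of markers move with the GST sum (1570 to 1664 CPM against 528 to 560 CPM).

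The order of the genes was set by their level per length of all annotated exons. In NR, GSTP1 stood at 481 ± 10.3 CPM per kb (SD, n = 3), followed by GSTO1 at 41.8 ± 2.31, MGST3 at 38.0 ± 0.946, GSTK1 at 28.0 ± 0.863, GSTM3 at 17.9 ± 0.562, MGST1 at 14.3 ± 0.412, MGST2 at 12.5 ± 0.761, GSTM4 at 8.57 ± 0.322, GSTA4 at 3.46 ± 0.417 and GSTM2 at 0.183 ± 0.0121. No neighbours in this order overlapped in their 3 libraries, and SP had the same order. In Ab, GSTP1 (143 ± 8.73 CPM per kb) and GSTO1 (34.6 ± 1.12) again led, MGST1 (10.2 ± 0.623) and GSTK1 (9.53 ± 0.337) overlapped in ranks 3 and 4, and MGST3 (7.01 ± 0.329) came after them. MGST3 thus had rank 5 in Ab and rank 3 in both particle groups. The order in the middle depended on the length used: per length of the longest coding transcript, MGST3 had rank 2 in NR at 265 CPM per kb and GSTO1 rank 5 at 67.2, whereas GSTP1 led and GSTM2 came last by either length in each group.

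The 2 kinds of particle were compared as NR against SP, which share the antibody, its dose and the time. By the study's account the rods and spheres also differ in size, supplier and surface charge. A difference between NR and SP therefore cannot be assigned to shape alone. By edgeR with Benjamini-Hochberg adjustment none of the 10 genes passed (adjusted p from 0.205 to 0.930). DESeq2 gave an adjusted p for 6 of them, of which none passed. Over all 14903 genes tested, 0.443% passed by edgeR. An unadjusted p under 0.05 was found for 2 of the 10, MGST3 and GSTO1, and for 12.9% of all genes tested. The values of 2 of the 10, GSTM2 and MGST3, did not overlap between NR and SP, against 18.1% of genes. MGST3 was 1.08-fold higher in NR (log2 0.11, SE 0.04, 95% interval 0.03 to 0.19, adjusted p = 0.205), and GSTO1 was likewise 1.08-fold higher (log2 0.11, SE 0.05, 95% interval 0.00 to 0.22, adjusted p = 0.379). GSTM2 had the largest difference and the widest interval (log2 0.26, 95% interval -0.28 to 0.80). The 95% intervals of the 10 differences all lay within 2-fold in either direction, and for GSTP1 the interval was -0.11 to 0.03 on the log2 scale. The summed counts of GSTM1, GSTM2, GSTM4 and GSTM5 were 1.10-fold higher in NR (log2 0.14, 95% interval 0.02 to 0.25, adjusted p = 0.273).

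**Figure D4:**
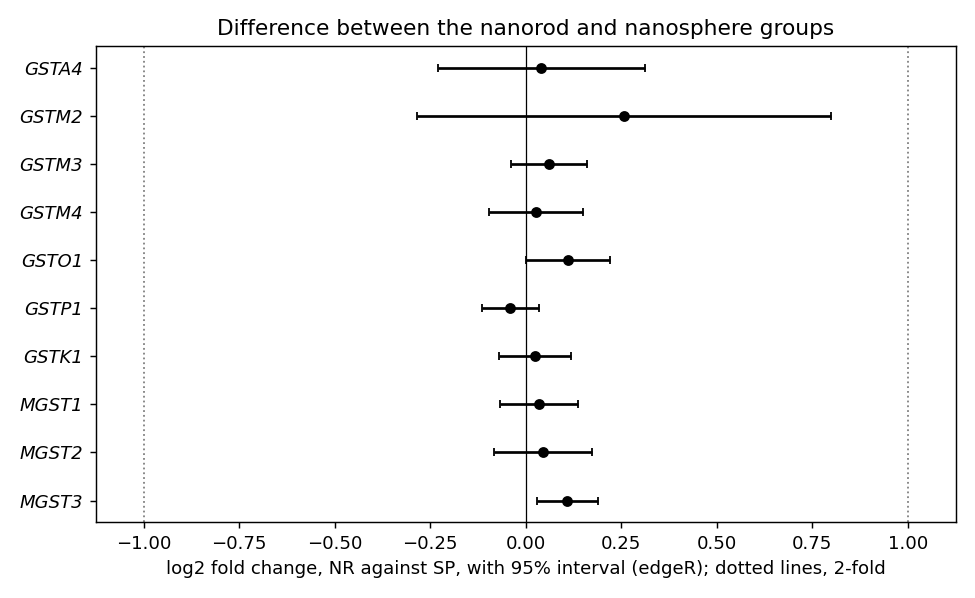
Log2 fold change of the 10 GST genes in NR against SP, with points for edgeR's estimates, bars for 95% intervals and dotted lines at 2-fold. All intervals stay between the dotted lines, the widest being that of GSTM2 (-0.28 to 0.80).

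The 15 other genes of the cytosolic and MAPEG families included 6 with at most 3 counts in every library. Of the 8 tested in NR, 7 rose and 1 fell, whereas 36.4% of all genes passed higher and 36.4% lower, and 7 could not be tested. In SP, 6 of 9 rose and 1 fell, beside 36.4% of all genes that passed higher and 36.6% lower. The theta-class gene GSTT1 was at 12.2 to 13.8 CPM in NR, 11.4 to 12.2 CPM in SP and 6.13 to 7.41 CPM in Ab, and rose by 0.91 (SE 0.12) and 0.78 (SE 0.12) on the log2 scale. GSTT2 rose by 1.18 (SE 0.19) and 1.10 (SE 0.19), and GSTT2B passed in NR (log2 0.91, SE 0.31, edgeR adjusted p = 0.0106, lost with DESeq2 at 0.0640 and without Ab library 3 at 0.0814) but not in SP (log2 0.40, SE 0.35, adjusted p = 0.295). Between NR and SP, GSTT2B did not pass (edgeR adjusted p = 0.473). GSTT2 and GSTT2B are near-identical, with 65.3% of the 150-base stretches of the GSTT2B transcript found in GSTT2 as well, so their counts are uncertain. GSTZ1, the zeta-class enzyme of tyrosine breakdown, rose by 0.53 (SE 0.10) and 0.62 (SE 0.10).

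In the MAPEG family the gene that fell was PTGES, the inducible prostaglandin E synthase. Its levels were 100, 117 and 107 CPM in NR, 112, 105 and 117 CPM in SP, and 161, 140 and 149 CPM in Ab, with no overlap between the particle groups and Ab. It fell by 0.50 (SE 0.06, edgeR adjusted p = 1.79e-07) in NR and by 0.45 (SE 0.06, adjusted p = 1.21e-07) in SP on the log2 scale. ALOX5AP, which presents arachidonic acid for leukotriene synthesis, had 16 to 35 counts per library and rose by 0.85 (SE 0.30) and 0.77 (SE 0.31). Both of its calls were lost with DESeq2 (adjusted p = 0.105 in NR and 0.133 in SP) and without Ab library 2 (adjusted p = 0.0899 and 0.146), and that in SP also with every gene of at least 1 count kept, without SP library 2 and without SP library 3. LTC4S, the leukotriene C4 synthase, had 2 to 3 counts in the NR libraries, whereas SP libraries had 8 to 20 and Ab libraries 9 to 11. It was too low for a test in NR, and did not pass in SP (log2 0.37, SE 0.43, adjusted p = 0.447). HPGDS, a sigma-class prostaglandin D synthase, had 0 counts in all 9 libraries.

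The other genes of glutathione metabolism were taken from lists, in the order of the pathway. The counts of these lists stand against 36.4% of all genes that passed higher in each comparison, and 36.4% in NR and 36.6% in SP that passed lower. Transcripts for the supply of glutathione were mostly lower: of 9 genes for cystine and amino acid uptake and glutathione synthesis, 7 fell and 1 rose in NR, and 6 fell and 1 rose in SP. The medians of the list were -1.21 and -1.12 on the log2 scale, also with CBS at the bound given below. SLC7A11, the cystine carrier, was at 38.3, 38.3 and 34.9 CPM in NR, 54.4, 45.3 and 39.9 CPM in SP, and 89.8, 105 and 100 CPM in Ab. It fell by 1.43 (SE 0.06) in NR and by 1.10 (SE 0.10) in SP on the log2 scale. Its partner SLC3A2 fell by 1.21 (SE 0.04) and 1.12 (SE 0.05), the amino acid carriers SLC1A5 by 2.20 (SE 0.05) and 2.24 (SE 0.05) and SLC1A4 by 1.01 (SE 0.05) and 1.16 (SE 0.05), and CTH, the last enzyme that makes cysteine from methionine, by 1.40 (SE 0.06) and 1.61 (SE 0.07). The synthetic enzymes themselves were named for their role after their values were seen: GCLC, the catalytic subunit of the rate-limiting ligase, fell by 0.15 (SE 0.06, adjusted p = 0.0200) in NR and stood at -0.06 (SE 0.06, adjusted p = 0.382) in SP. The call of GCLC in NR held in 8 of 13 alternatives, and was lost with DESeq2 (adjusted p = 0.0648), with library totals (0.0521) and without NR library 2 (0.0590), NR library 3 (0.0607) or Ab library 2 (0.109). Its modifier subunit GCLM rose by 0.30 (SE 0.06) and 0.29 (SE 0.07), and GSS did not pass (adjusted p = 0.329 and 0.477). CBS, also singled out after its values were seen, had 53, 89 and 70 counts in Ab, 6, 2 and 2 in SP and 1, 0 and 2 in NR, at least 12.5-fold lower in NR when its lowest Ab level was set against the highest floor of 3 counts in an NR library.

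Transcripts for the recycling of glutathione were mostly higher. GSR, which reduces oxidised glutathione, was at 59.8 to 63.2 CPM in NR, 57.5 to 59.4 CPM in SP and 22.0 to 23.8 CPM in Ab, and rose by 1.41 (SE 0.07) and 1.32 (SE 0.07) on the log2 scale. PGD, an enzyme that makes NADPH, rose by 0.66 (SE 0.05) and 0.63 (SE 0.05), while the mitochondrial glutaredoxin GLRX2 fell by 1.01 (SE 0.06) and 1.10 (SE 0.06). In all, 6 of 9 genes of this list rose and 2 fell in each particle group, with medians of 0.63 and 0.60, where 36.4% of all genes passed higher.

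Breakdown of glutathione and trimming of its conjugates were mixed, with 5 of 9 tested genes higher and 3 lower in both comparisons, the share that fell being close to that of all genes (36.4% and 36.6%). CHAC1, which degrades glutathione inside the cell, was at 8.39, 9.45 and 8.53 CPM in NR, 11.7, 9.21 and 9.47 CPM in SP, and 185, 172 and 169 CPM in Ab. It fell by 4.35 (SE 0.07, edgeR adjusted p = 2.27e-27) and 4.14 (SE 0.08, adjusted p = 7.19e-25), the largest fitted fall of this list. The membrane peptidase ANPEP fell by 2.42 (SE 0.06) and 2.25 (SE 0.07). GGT1, the gamma-glutamyl transferase that starts mercapturate formation, rose by 1.58 (SE 0.12) and 1.64 (SE 0.12), and the aminopeptidase LAP3 by 0.84 (SE 0.07) and 0.82 (SE 0.07).

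Of the pumps that export conjugates, 5 rose and 2 fell in each comparison, of 8 tested in NR and 7 in SP, beside 36.4% of all genes that passed higher. ABCG2 stood at 69.9, 75.5 and 74.2 CPM in NR, 96.7, 74.8 and 75.2 CPM in SP, and 28.1, 33.4 and 34.5 CPM in Ab, and rose by 1.16 (SE 0.07) and 1.34 (SE 0.11). ABCC4 rose by 0.68 (SE 0.06) and 0.56 (SE 0.06), and ABCC2 by 1.07 (SE 0.14) and 1.10 (SE 0.13). ABCC1 (MRP1), a main carrier of glutathione conjugates, fell by 0.41 (SE 0.05) and 0.26 (SE 0.05), and ABCC3 by 0.63 (SE 0.05) and 0.51 (SE 0.05).

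**Figure D5:**
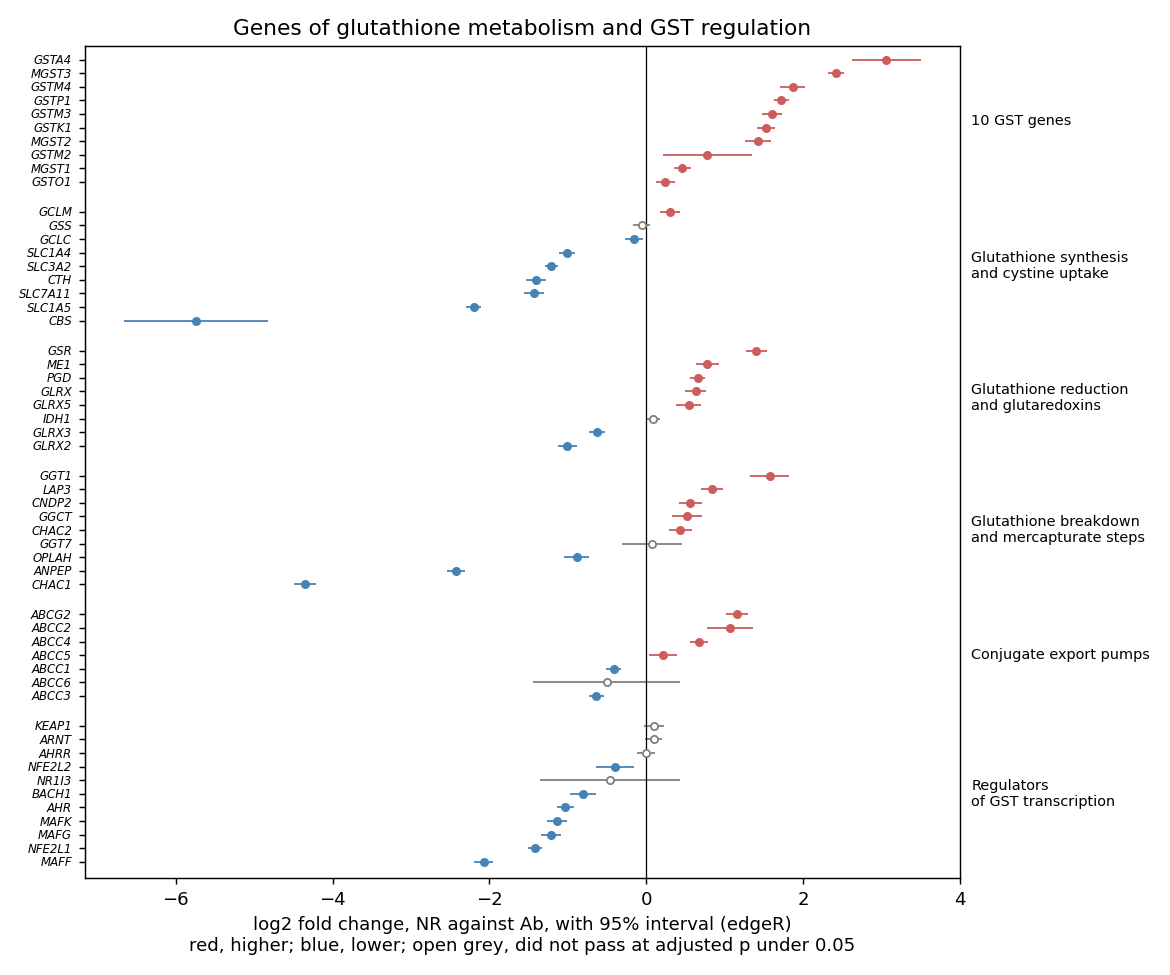
Log2 fold change in NR against Ab of the 10 GST genes and of all but 2 of the tested genes of 5 lists of glutathione metabolism and GST regulation, with 95% intervals from edgeR. Red points rose, blue points fell and open grey points did not pass; uptake genes and regulators lie mostly left of 0, and the fitted value of CBS, with 0 to 2 counts in NR, is no bound.

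The transcripts of the listed regulators of GST transcription, activators and repressors together, were mostly lower. In NR 7 of 11 fell and 0 rose, and in SP 8 fell and 1 rose, where 36.4% and 36.6% of all genes passed lower. The one that rose in SP, named after its values were seen, was ARNT, the dimer partner of AHR (log2 0.14, SE 0.06, edgeR adjusted p = 0.0253), and its call was lost without SP library 3 (adjusted p = 0.0872) or Ab library 3 (0.163). NFE2L2, which encodes NRF2 and was named for its role after its values were seen, was at 111, 107 and 106 CPM in NR, 96.3, 102 and 108 CPM in SP, and 116, 152 and 151 CPM in Ab, with both particle groups below Ab and overlapping each other. It fell by 0.40 (SE 0.10, edgeR adjusted p = 0.00914) and 0.48 (SE 0.10, adjusted p = 0.00302). Ab library 1 stood apart from the other 2 Ab libraries, and the NR call was lost without NR library 1 (adjusted p = 0.0641) or NR library 3 (0.0638). NFE2L1, its relative, fell by 1.42 (SE 0.04) and 1.33 (SE 0.04), and the small MAF genes fell too: MAFF by 2.07 (SE 0.06) and 2.03 (SE 0.06), MAFG by 1.21 (SE 0.06) and 1.22 (SE 0.06), and MAFK by 1.14 (SE 0.06) and 1.27 (SE 0.06). AHR was at 66.1 to 68.7 CPM in NR, 72.6 to 76.5 CPM in SP and 127 to 142 CPM in Ab, a fall of 1.03 (SE 0.05) and 0.89 (SE 0.05). The repressor BACH1, named for its role after its values were seen, was also lower in both particle groups. Its levels were 56.5, 54.7 and 55.4 CPM in NR, 50.1, 57.4 and 59.0 CPM in SP, and 81.0, 104 and 102 CPM in Ab. These are transcript levels, and NRF2 is known to be set mainly by the stability of the protein, which RNA-seq does not measure. In none of these 5 lists did a gene pass between NR and SP by edgeR, nor by DESeq2 where it gave an adjusted p. An unadjusted p under 0.05 was found for 4 of 8 tested genes of synthesis and uptake, 1 of 9 of reduction and 2 of 9 of breakdown. The same held for 3 of 7 pumps and 3 of 10 regulators, beside 12.9% of all genes. With other settings 1 gene of these lists, SLC7A11, passed lower in NR than in SP in 3 alternatives: with every gene of at least 1 count kept (adjusted p = 0.000225), with the replicate block (0.0441) and without SP library 3 (0.00673).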

How the data were processed

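The deposited values are whole read counts per Ensembl gene ID, made by the authors and not scaled between libraries. Per the study's methods, 150-base paired-end reads of poly-A RNA were cleaned, aligned with Hisat2 2.1.0 to the human genome (hg19) and counted with Counts or, by the reporting summary, HTSeq. The submitters' processing notes list HISAT2 2.1.0, DESeq2 1.16.1 and, for these human cells, a mouse build, which was not used here. The strand setting, the handling of reads with several matches and the annotation release are not given in the sources used here. Of 60880 IDs, 59858 were found in GENCODE release 44 on GRCh37, and the 1022 others made up no more than 0.115% of the counts of any library.

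The 6 libraries of each pair of groups were fitted over all genes with edgeR 4.0.16 in R 4.3.3 (TMM scaling, filterByExpr with a minimum count of 10 and a total of 15, robust quasi-likelihood test, Benjamini-Hochberg adjustment). The script was tested on simulated counts. The 10 genes, the lists and the tests were chosen with earlier results of these data known, and the groups came from the sample labels. The genes named are the 10, the 15 other family members and, from each other list, the 4 with the smallest adjusted p in each comparison with Ab, while those outside this rule are given as such. Detection was limited by depth, intervals cover the spread between these libraries, and the floor covers counting error only. Libraries within a group differed from each other (chi-square per gene 1.84 to 7.43), so none was a copy of another. Alternatives were DESeq2 1.42.0, RLE scaling, library totals, other count minimums, a fold minimum of 1.5, a joint fit of the 9 libraries, a block for the replicate number, each library left out in turn, and another gene length. Python 3.11.15, numpy 2.4.6, pandas 2.3.3 and matplotlib 3.10.9 made the tables and figures. The levels of 2 genes of these lists, which stay in the counts, are not reported here.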

Additional observations from a re-analysis of the deposited data

How the results depend on the processing

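Against Ab, the 10 genes kept their direction under every alternative run. All but GSTM2 and GSTO1 kept their side of the threshold, and 9 to 10 passed in NR, 8 to 9 in SP. The GSTO1 call in SP was lost in 7 of 13 alternatives, and other scalings moved the median of all genes by at most 0.0262 (log2). With a fold minimum of 1.5, the genes called numbered 6348 in NR and 6385 in SP (3409 and 3502 with the 2-fold minimum) and 5 in NR against SP. Between NR and SP, 66 genes passed and 3 were called, against 144 and 0 with DESeq2, 328 and 27 with at least 1 count, and 10 to 188 and 0 to 28 with 1 library left out. None of the 10 passed in any of these where an adjusted p was given. Among the 10 genes and the 15 other GST and MAPEG genes, with 1 library left out, the log2 differences between NR and SP that changed sign ranged from -0.0577 to 0.110 in GSTA4, -0.0156 to 0.0701 in GSTM4, -0.0029 to 0.0602 in GSTK1, -0.0167 to 0.0805 in MGST1, -0.00125 to 0.0911 in MGST2, -0.0902 to 0.0560 in GSTO2 and -0.102 to 0.0108 in PTGES, and that of LTC4S in SP against Ab from -0.0763 to 0.626. GSTM1 passed between NR and SP in 2 of 13 alternatives (adjusted p 0.0227 with at least 1 count, 0.0364 without SP library 1). In each comparison with Ab, the leukocyte, fibroblast and endothelial markers that passed fell to 1 per list with at least 10 counts in every library. The causes were not tested. No sign was seen that replicate numbers pair the libraries. The correlation of deviations was -0.105 to 0.0408 for same-numbered and -0.0733 to 0.125 for differently numbered libraries. As the deviations are from means of 3 libraries, these values cannot exclude a pairing. With the replicate block, 10 of the 10 passed in NR, 9 in SP and 0 between NR and SP. The summed level without GSTP1 was 781 CPM in NR, 744 in SP and 287 in Ab.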

Other observations

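Oxidising enzymes that make the substrates of conjugation were not part of the lists above, and 9 of 16 had enough counts for a test. In both comparisons 6 of the 9 rose and 3 fell, beside 36.4% of all genes that passed higher and 36.4% (NR) and 36.6% (SP) that passed lower. The electron carriers CYB5R3 and CYB5A, which pass electrons to membrane-bound oxidases, rose by 1.15 (SE 0.05) and 1.76 (SE 0.11) in NR and by 1.22 (SE 0.06) and 1.67 (SE 0.11) in SP on the log2 scale. CYP3A5, a drug-oxidising P450, was at 9.40, 8.01 and 10.1 CPM in NR, 10.3, 10.2 and 11.2 CPM in SP, and 2.66, 3.27 and 2.90 CPM in Ab, and rose by 1.61 (SE 0.15) and 1.81 (SE 0.14). CYP2S1, another P450, rose in both groups (SP log2 1.02, SE 0.10). CYP1B1, a known target of AHR, was at 20.7, 23.5 and 19.9 CPM in NR, 27.9, 20.5 and 21.0 CPM in SP, and 48.7, 55.4 and 60.0 CPM in Ab, and fell by 1.39 (SE 0.08, edgeR adjusted p = 1.57e-14) and 1.27 (SE 0.12, adjusted p = 2.10e-06).

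Among 16 other conjugating and epoxide enzymes, 8 were tested, of which 4 rose and 2 fell in both comparisons, counts to be read against the same shares of all genes. EPHX1, the microsomal epoxide hydrolase, rose by 0.92 (SE 0.06) in NR and 0.85 (SE 0.06) in SP. The methyltransferases diverged: HNMT, which inactivates histamine, rose by 2.54 (SE 0.19) and 2.58 (SE 0.20) and TPMT, which methylates thiopurines, by 0.94 (SE 0.07) and 0.85 (SE 0.06), while NNMT, which methylates nicotinamide, fell by 1.19 (SE 0.06) and 1.23 (SE 0.07). Of the 8 not tested, the glucuronyl transferase UGT2B15 and the sulfotransferase SULT1E1, named after their values were seen, had 0 counts in all 9 libraries.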
